A study of Rattus norvegicus with 6 samples.

Results

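The enzymes, transporters and regulators of glycolysis, gluconeogenesis and glycogen metabolism were followed in rat liver as a set of 34 genes. The members are a list of named genes, with no threshold on a measured value: 14 enzymes of glycolysis, 6 genes of gluconeogenesis, 7 of glycogen turnover, and 7 sugar transporters and control genes. On the arrays 33 of the 34 had at least 1 probe, 65 probes in all of 61657, and the exception was Phka2, a regulatory subunit of phosphorylase kinase. Livers came from male Sprague-Dawley rats of 9 weeks, an outbred stock, all of which received corn oil at 5 mL/kg/day as vehicle. Of the 6 rats, 3 were killed after isoflurane, an inhaled anaesthetic, and 3 after CO2/O2, a gas mixture that renders rodents unconscious. The labels conflict on how long corn oil was given, 3 days in one field and 9 weeks in another. No rat without anaesthesia was measured, so a difference could not be assigned to either kind. The question was whether the choice of anaesthesia alters hepatic gene expression.

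The liver takes up glucose after a meal, breaks it down by glycolysis or stores it as glycogen, and between meals releases glucose made by glycogenolysis and gluconeogenesis. Insulin, glucagon and glucose itself set the balance in part through the transcription of a few control enzymes, among them glucose-6-phosphatase and phosphoenolpyruvate carboxykinase. Enzyme activity was not measured here. The enzymes in the reversible middle of the pathway serve both directions.

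Each array had 53.4% to 62.3% of its probes well above background, and no spot was saturated. All 6 arrays lay on 1 slide; its row 1 held the 3 CO2/O2 arrays and isoflurane replicate 1, and its row 2 held isoflurane replicates 2 and 3. Hepatocyte markers were bright on every array, with albumin (Alb) between 8.90 and 9.07 log2 units above the 75th percentile of its array, the zero of all log2 signals given here. Bulk liver cannot tell fewer cells of a type apart from less RNA per cell.

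None of the genes passed the test between the kinds of anaesthesia. A gene was represented by its brightest tested probe, and 32 of the 33 genes with a probe were well above background on all 6 arrays and were tested. In limma, 0 of 32 reached an adjusted p of 0.05 and 0 of 32 an unadjusted p of 0.05, against 0% and 7.58% of the 10609 genes tested, and against 0.00866% of all probes at the adjusted threshold. The smallest adjusted p among the members was 0.679. Isoflurane minus CO2/O2 was positive in 18 and negative in 14 of the 32, with a median difference of 0.01 log2 units, against -0.01 over all genes. The differences ran from -0.53 (Hk3) to 0.63 (Gyg1), and 20 of 32 lay within 0.1 of 0.

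Most of these differences were bounded within 2-fold, which is a wide bound: the interval of Pfkm, counted as bounded, ran from -0.59 to 0.97. For 28 of the 32, or 87.5%, the 95% confidence interval lay within 2-fold in either direction, against 90.5% of all genes. The 4 exceptions were Hk3, G6pc1, Gyg1 and Pfkfb1, whose rats differed widely within a group. The groups did not overlap for 1 member, Gckr, against 14.2% of all genes. Where a gene had several tested probes, as 22 members had, their differences shared a sign in 14, and in 0 did probes differ in sign with both over 0.2 log2 units.

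Many of these values changed when slide row entered the model. With the row as a block, which sets isoflurane rat 1 against the 3 CO2/O2 rats of its row, 20 of 32 members had the same sign and 12 the other, with a median difference of -0.0055. The differences were then -0.93 for Hk3, 0.33 for Gyg1, 0.13 for Pfkfb1 and 0.38 for Pfkfb3. Row 2 held isoflurane rats alone, so within it no comparison could be made.

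**Figure D1:**
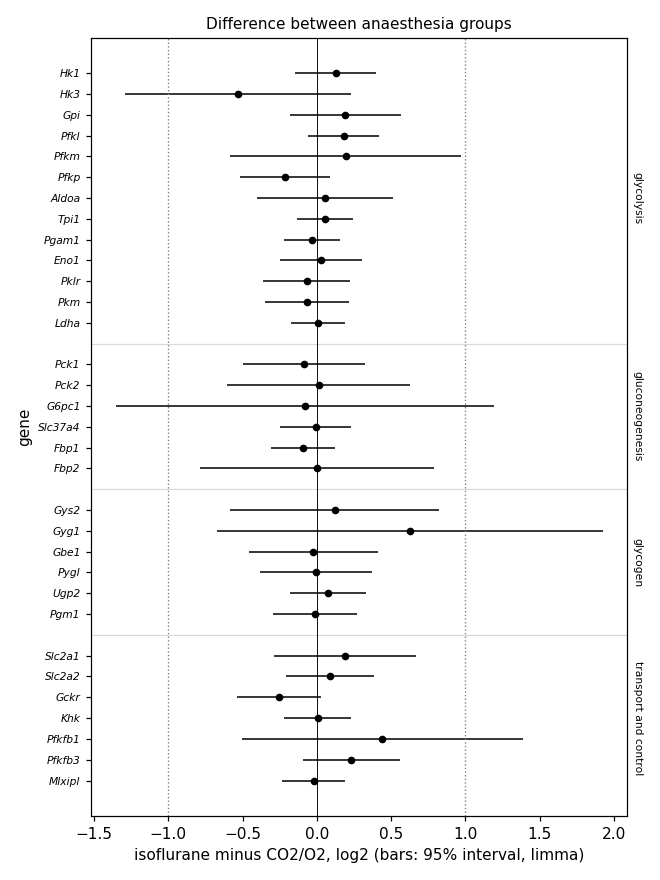
Difference in log2 signal, isoflurane minus CO2/O2, for each of the 32 tested genes, with 95% confidence intervals from limma (3 rats per group) and dotted lines at 2-fold. Intervals cross 0 in every row, and those of Hk3, G6pc1, Gyg1 and Pfkfb1 reach past a dotted line.

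Median differences between groups were small in each route. Glycolysis had a median difference of 0.03 (8 of 13 positive), gluconeogenesis -0.04 (2 of 6) and glycogen genes 0.04 (3 of 6), each with 0 members past the adjusted threshold in limma. Transport and control genes had a median of 0.09 (5 of 7 positive), which ran from 0.034 to 0.15 with 1 array left out. Without isoflurane rat 3 the gluconeogenesis median was -0.25. The SD between rats of the same group had a median of 0.14 log2 units for glycolysis, 0.30 for gluconeogenesis and 0.23 for glycogen genes, against 0.15 for transport and control genes and 0.15 over all genes. The gluconeogenesis value rested on isoflurane rat 3: without it the medians were 0.17 for gluconeogenesis, 0.13 for glycolysis and 0.18 for glycogen genes. These are descriptions of the lists, and no test between routes was made.

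Mean signals lay between -1.68 and 8.67 for glycolysis, -0.44 and 8.78 for gluconeogenesis, -0.65 and 5.91 for glycogen genes, and -3.13 and 7.67 for transport and control genes. Signals of different probes depend on the probe, so the order of these levels was not read.

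Of the 32 members, 7 had a pooled SD above 0.39, the value that 10% of all genes exceed by construction, and 3 lay below 0.064, the value that 10% fall under. The 7 were Gyg1, G6pc1, Pfkfb1, Fbp2, Pfkm, Hk3 and Gys2. The 3 with the tightest values were Ldha, Tpi1 and Pgam1. The SD was larger among isoflurane than among CO2/O2 rats for 20 of 32 members, and for 60.9% of all genes.

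**Figure D2:**
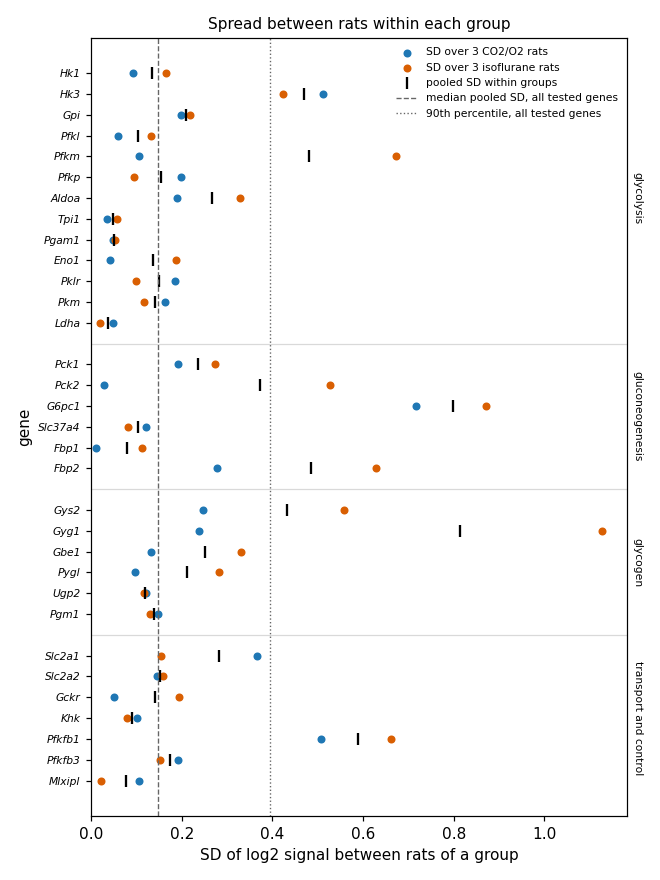
SD of log2 signal over the 3 rats of each group (circles) and pooled within groups (bars) for each gene, with the median (dashed, 0.15) and the 90th percentile (dotted, 0.39) of the pooled SD over all 10609 tested genes. Ldha, Tpi1 and Pgam1 lie near 0, while Gyg1 and G6pc1 lie at 0.81 and 0.80.

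Promoters of 33 of the 34 members were held by the RefSeq table of the assembly GRCr8 (250 bases before to 50 after the start). The letters ACGTG, the core of hypoxia response elements, were found on either strand in 14 of 33 members, or 42.4%, against 20.9% of 27457 genes. By route these were 8 of 14 glycolysis genes, 0 of 5 gluconeogenesis genes, 4 of 7 glycogen genes and 2 of 7 transport and control genes. CACGTG, which contains ACGTG and is the core of E-boxes and carbohydrate response elements, stood in 3 of 33 (9.09%) against 7.08% of all genes. TGACG, the core of cAMP response elements, stood in 9 of 33 (27.3%) against 23.0%, GTAAACA, a forkhead motif, in 0 of 33 against 4.13%, and TATAAA in 5 of 33 (15.2%) against 15.3%. A match is a description of letters and shows no binding.

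The 250 bases upstream of 5 starts are shown, 5′ to 3′ on the gene's strand, with matches to these motifs in capitals. Ldha stands for the tight glycolytic genes. G6pc1 and Pck1 had their lowest signals in the same rats, and Gys2 and Pfkfb1 their highest in the same rats, as described further on. The windows are chr1:106507842-106508091 (+) for Ldha, chr10:86807409-86807658 (+) for G6pc1, chr3:182348322-182348571 (+) for Pck1, chr4:177137237-177137486 (-) for Gys2 and chrX:22941926-22942175 (+) for Pfkfb1.
Ldha: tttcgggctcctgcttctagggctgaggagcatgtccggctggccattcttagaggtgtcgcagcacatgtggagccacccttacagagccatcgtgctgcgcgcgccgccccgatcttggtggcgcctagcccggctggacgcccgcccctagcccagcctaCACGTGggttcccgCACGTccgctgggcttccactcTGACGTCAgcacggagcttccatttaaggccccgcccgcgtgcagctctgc
G6pc1: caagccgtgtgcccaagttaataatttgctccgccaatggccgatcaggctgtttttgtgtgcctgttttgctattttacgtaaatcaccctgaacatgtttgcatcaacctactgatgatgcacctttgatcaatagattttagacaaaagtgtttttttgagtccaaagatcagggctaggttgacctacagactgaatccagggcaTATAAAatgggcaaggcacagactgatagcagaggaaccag
Pck1: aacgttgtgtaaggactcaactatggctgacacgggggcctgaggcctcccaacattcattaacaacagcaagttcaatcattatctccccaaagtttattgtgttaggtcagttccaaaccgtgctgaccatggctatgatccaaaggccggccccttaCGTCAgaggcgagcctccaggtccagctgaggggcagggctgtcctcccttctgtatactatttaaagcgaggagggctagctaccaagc
Gys2: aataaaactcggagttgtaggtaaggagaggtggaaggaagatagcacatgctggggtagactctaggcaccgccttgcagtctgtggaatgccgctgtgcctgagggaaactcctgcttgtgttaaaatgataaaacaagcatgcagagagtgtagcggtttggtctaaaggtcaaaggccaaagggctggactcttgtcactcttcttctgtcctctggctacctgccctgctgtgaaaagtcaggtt
Pfkfb1: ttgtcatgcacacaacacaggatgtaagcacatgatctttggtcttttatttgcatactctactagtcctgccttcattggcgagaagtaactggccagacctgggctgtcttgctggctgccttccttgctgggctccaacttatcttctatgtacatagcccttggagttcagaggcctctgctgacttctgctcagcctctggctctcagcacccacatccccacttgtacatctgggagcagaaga
The Ldha window held CACGTG, a second ACGTG and TGACG on both strands, which overlap as 1 palindrome. The Pck1 window held TGACG on the reverse strand, the letters of its known cAMP response element, and the G6pc1 window held TATAAA. None of the 5 motifs was found in the windows of Gys2 and Pfkfb1.

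Among the hexokinases, which trap glucose by phosphorylation, the isoforms had different values. Hk2, the insulin-responsive form of muscle and fat, was not well above background on all arrays of either group: its brighter probe was above background on 2 CO2/O2 arrays and 1 isoflurane array, and its other probe on 0 of 6. Hk1, the widely expressed form, had a difference of 0.13 ± 0.11 (SE, n = 3 per group), and its dimmer probe gave 0.38. Hk3, a form known from myeloid cells, had signals of -0.54, -0.20 and -1.20 after CO2/O2 (rats 1 to 3) and -1.58, -0.74 and -1.22 after isoflurane. The CO2/O2 rats 1 and 2 had the highest values and the groups overlapped. The difference was -0.53 ± 0.31 (limma adjusted p = 0.736), and it ran from -0.81 to -0.31 with 1 array left out.

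Markers of Kupffer cells, the liver macrophages, had differences of the same sign as Hk3. All 11 of 11 markers were above background on every array and had negative differences, with a median of -0.33. Their summed signal, in multiples of each array's 75th percentile, was 211.5 to 259.9 after CO2/O2 and 171.0 to 202.4 after isoflurane. Of 6 neutrophil markers 3 were tested, all negative, with summed signals of 1.49 to 2.17 and 0.98 to 2.10. In isoflurane rat 1, where Hk3 was lowest, the neutrophil markers S100a8 and S100a9 had their highest signals, -0.82 and -0.04. The neutrophil marker Camp was highest, at -0.52, in CO2/O2 rat 2, as was Hk3. Of 8 lymphocyte markers 6 were tested, also all negative. The part of these cells in the Hk3 values was not tested.

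Phosphofructokinase commits sugar to glycolysis, and its liver subunit gene is Pfkl. Pfkl had -0.29, -0.35 and -0.23 after CO2/O2 and -0.25, -0.11 and 0.02 after isoflurane. Isoflurane rats 2 and 3 lay above all CO2/O2 rats, while isoflurane rat 1 lay among them. The difference was 0.18 ± 0.099 (limma adjusted p = 0.725), a ratio of 1.13. It was 0.12 without isoflurane rat 3 and 0.045 with the block for slide row. Its other 2 probes gave 0.17 and 0.28, the last with an unadjusted limma p of 0.0361, the single member probe below 0.05 among 60 tested, against 7.55% of all probes.

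The platelet-type subunit Pfkp had 0.85, 0.89 and 0.53 after CO2/O2 and 0.47, 0.65 and 0.51 after isoflurane. The difference was -0.21 ± 0.12 (limma adjusted p = 0.734), and the groups overlapped. The muscle subunit Pfkm was even among CO2/O2 rats, at -1.72, -1.71 and -1.90, and spread among isoflurane rats, at -2.36, -1.22 and -1.17. Isoflurane rat 1 had the lowest value of all and isoflurane rats 2 and 3 the highest. Its difference of 0.19 ± 0.32 became -0.01 without isoflurane rat 3 and 0.58 without isoflurane rat 1. With the slide row as a block, which sets isoflurane rat 1 alone against the CO2/O2 rats, it was -0.58. Of 4 skeletal muscle markers 1 was tested, Ckm, which was dim, with a mean of -3.35. Its highest signal, -2.60, was in isoflurane rat 1, where Pfkm was lowest. The part of muscle tissue in the Pfkm values was not tested.

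Ldha, Tpi1 and Pgam1 had the smallest spread. Triose-phosphate isomerase (Tpi1) had 5.40, 5.35 and 5.41 after CO2/O2 and 5.38, 5.49 and 5.46 after isoflurane, a range over all 6 rats of 1.11-fold. Lactate dehydrogenase A (Ldha), which interconverts pyruvate and lactate, spanned 1.07-fold, and phosphoglycerate mutase (Pgam1) had a pooled SD of 0.050 log2 units. For Ldha the difference was 0.01 ± 0.076, with a 95% interval of -0.17 to 0.19. Genes of this kind can have near-identical processed copies in the genome, so it is uncertain whether a probe reads the parent gene alone.

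Other glycolytic members had small differences with wider spread. Glucose-6-phosphate isomerase (Gpi) had 3.88, 3.86 and 3.53 after CO2/O2 and 3.77, 3.88 and 4.19 after isoflurane, where isoflurane rat 3 was highest and CO2/O2 rat 3 lowest. Its difference was 0.19 ± 0.15 (limma adjusted p = 0.805), 0.070 without isoflurane rat 3 and 0.015 with the block for slide row. Aldolase A (Aldoa) was also highest in isoflurane rat 3, at 2.30 against 1.69 to 2.06 elsewhere. Enolase 1 (Eno1) had a difference of 0.03 ± 0.11. The liver pyruvate kinase Pklr, a glucose- and insulin-responsive enzyme, had -0.07 ± 0.12, and Pkm, the form of other tissues, -0.06 ± 0.12. The dimmer Pklr probe gave 0.16.

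Gluconeogenesis showed its largest differences between rats and not between groups. G6pc1, the glucose-6-phosphatase that releases free glucose, had 5.88, 7.13 and 7.11 after CO2/O2 (rats 1 to 3) and 7.07, 5.62 and 7.18 after isoflurane. CO2/O2 rat 1 and isoflurane rat 2 were low, and the other 4 rats lay between 7.07 and 7.18. Its second probe was low in the same rats, with 2.40, 3.73 and 3.68 and then 3.72, 2.11 and 3.76. The range over all rats was 2.95-fold. The difference between groups was -0.08 ± 0.53 (limma adjusted p = 0.984), with a 95% interval of -1.36 to 1.19. It was -0.50 without CO2/O2 rat 1 and 0.42 without isoflurane rat 2.

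Pck1, the cytosolic phosphoenolpyruvate carboxykinase, had 6.52, 6.89 and 6.80 after CO2/O2 and 6.71, 6.35 and 6.88 after isoflurane. Its lowest values were in the same rats as those of G6pc1, within a narrower range of 1.45-fold. The difference was -0.08 ± 0.17 (limma adjusted p = 0.936), -0.20 without isoflurane rat 3 and 0.07 without isoflurane rat 2. The second probe had its lowest values in the same rats, at 5.84 and 5.61.

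Both groups thus held 1 rat with low G6pc1 and Pck1. The labels give no feeding state or time of killing for single rats.

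The remaining gluconeogenic genes did not share that pattern in full. Slc37a4, the glucose-6-phosphate carrier of the endoplasmic reticulum, spanned 1.18-fold, with a difference of -0.01 ± 0.099. Fbp1, the hepatic fructose-1,6-bisphosphatase, had 8.82, 8.84 and 8.82 after CO2/O2 and 8.82, 8.61 and 8.77 after isoflurane, where isoflurane rat 2 was lowest. Its difference was -0.09 ± 0.089 (limma adjusted p = 0.837), and its other probe gave 0.09.

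The mitochondrial carboxykinase Pck2 and the muscle-type bisphosphatase Fbp2 had their highest values in isoflurane rat 3. Pck2 had 2.17, 2.12 and 2.15 after CO2/O2 and 1.79, 1.93 and 2.76 after isoflurane. Isoflurane rats 1 and 2 lay below and isoflurane rat 3 above all CO2/O2 rats. Its difference of 0.01 ± 0.25 became -0.29 without isoflurane rat 3. Fbp2 had -0.62, -0.12 and -0.58 after CO2/O2 and -0.77, -0.82 and 0.29 after isoflurane, with a difference of 0.00 ± 0.32 that became -0.36 without isoflurane rat 3. The dim muscle marker Ckm was at -3.78 in that rat and at -3.79 in CO2/O2 rat 3, its lowest values. The part of muscle tissue in the Pck2 and Fbp2 values was not tested.

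**Figure D3:**
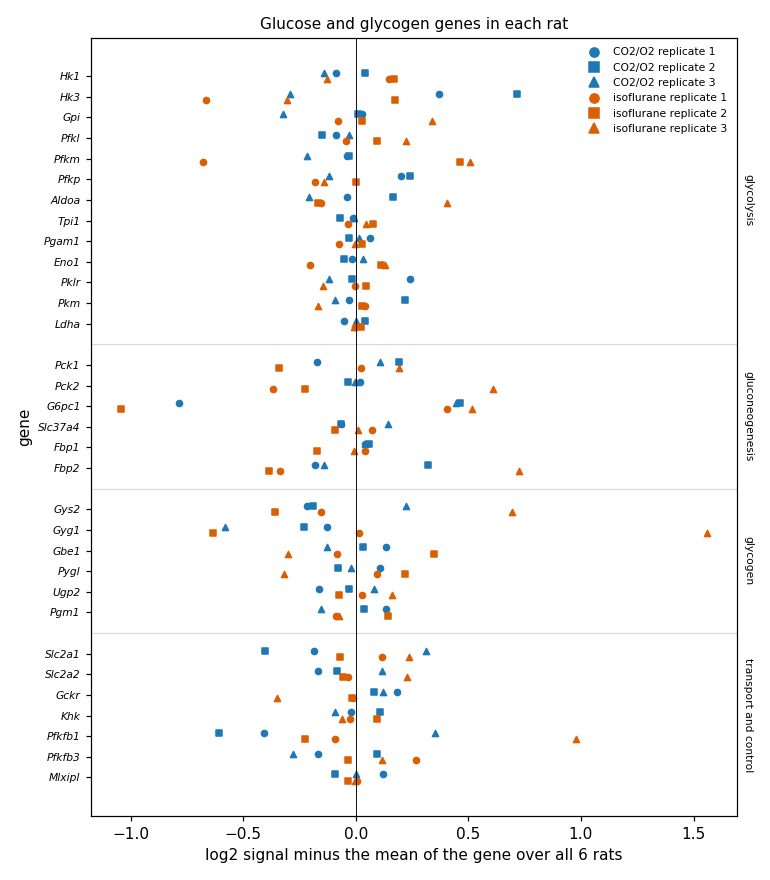
Log2 signal of each of the 32 genes in each of the 6 rats, as a deviation from the mean of the gene over all rats; blue marks CO2/O2 and orange isoflurane, and the marker shape gives the replicate. Deviations of Ldha, Tpi1 and Pgam1 stay near 0, G6pc1 is low in CO2/O2 replicate 1 and isoflurane replicate 2, and Gyg1 is high in isoflurane replicate 3.

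Isoflurane rat 3 also had the highest values of several glycogen genes. Gyg1, glycogenin, which primes new glycogen chains, had -0.78, -0.88 and -1.23 after CO2/O2 and -0.64, -1.29 and 0.91 after isoflurane. Its range of 4.58-fold was the widest of the members, and isoflurane rat 3 stood 1.55 log2 units above the next rat. The difference of 0.63 ± 0.54 (limma adjusted p = 0.814) became 0.00 without that rat. A single probe read this gene.

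Gys2, the liver glycogen synthase, had 5.70, 5.73 and 6.14 after CO2/O2 and 5.76, 5.56 and 6.61 after isoflurane. Isoflurane rat 3 was highest and CO2/O2 rat 3 next, and the second probe gave the same 2 rats, at 4.10 and 3.35. The difference was 0.12 ± 0.29 (limma adjusted p = 0.947), -0.20 without isoflurane rat 3, and with the block for slide row -0.09.

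Ugp2, which makes the UDP-glucose used by glycogen synthase, had a difference of 0.08 ± 0.11 (limma adjusted p = 0.894), with 5.73, 5.87 and 5.98 after CO2/O2 and 5.92, 5.82 and 6.06 after isoflurane. Its rat 3 was highest in each group. The difference ran from 0.014 without CO2/O2 rat 1 to 0.14 without CO2/O2 rat 3. The other Ugp2 probes gave larger differences, 0.18 and 0.18, and the mean of the gene's probes gave 0.15. The branching enzyme Gbe1 had a difference of -0.02 ± 0.18, the liver glycogen phosphorylase Pygl 0.00 ± 0.16 and phosphoglucomutase Pgm1 -0.01 ± 0.12. The dimmer Gbe1 probe gave 0.15. Pygl and Gbe1 were lowest in isoflurane rat 3, at 2.45 and 0.96. In that rat Gyg1, Gys2 and Ugp2 were thus at their highest, and the branching enzyme Gbe1, also on the synthetic side, and Pygl at their lowest.

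Among the transporters, Slc2a2, the main glucose transporter of hepatocytes, had 4.65, 4.73 and 4.93 after CO2/O2 and 4.78, 4.76 and 5.04 after isoflurane. It had a difference of 0.09 ± 0.12, and its other probes gave 0.12 and 0.22. Slc2a1, a widely expressed transporter, had 0.41, 0.19 and 0.91 and then 0.71, 0.53 and 0.84. The difference was 0.19 ± 0.20 (limma adjusted p = 0.852), and it ran from 0.03 without CO2/O2 rat 2 to 0.39 without CO2/O2 rat 3. Erythroid markers, of which 4 of 7 were tested, all had negative differences. Their summed signals were 139.9 to 190.4 after CO2/O2 and 100.7 to 135.9 after isoflurane. Hbb, at 6.63 to 7.54 log2 units, was by far the brightest and weighed most in these sums. The groups overlapped for Alas2 and Ahsp but not for Hbb and Slc4a1, and they did not overlap for 14.2% of all genes. The part of such cells in the Slc2a1 values was not tested.

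Pfkfb1, the liver form of the bifunctional enzyme that makes and removes the glycolytic activator fructose-2,6-bisphosphate, had 3.56, 3.36 and 4.32 after CO2/O2 and 3.88, 3.74 and 4.95 after isoflurane. Rat 3 of each group was high, as for Gys2, Slc2a2 and Slc2a1, although replicates of the same number share no stated origin. Its range was 3.01-fold. The difference was 0.44 ± 0.39 (limma adjusted p = 0.823), and 0.06 without isoflurane rat 3. The second probe gave 0.42. Pfkfb3, the inducible form, had -3.30, -3.03 and -3.41 after CO2/O2 and -2.86, -3.16 and -3.01 after isoflurane, with a difference of 0.23 ± 0.13 (limma adjusted p = 0.731). Of its 3 probes 1 was above background.

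Gckr, which encodes a nuclear regulatory protein of glucose use in hepatocytes, had the smallest p with each gene read by its brightest tested probe. Dimmer probes of Pfkl, Slc2a2 and Hk1 had smaller unadjusted limma p-values, 0.0361, 0.0580 and 0.0661. Gckr had 6.60, 6.50 and 6.54 after CO2/O2 and 6.41, 6.40 and 6.07 after isoflurane. Each isoflurane rat lay below each CO2/O2 rat, by a margin of 0.10 log2 units at the nearest pair, and isoflurane rat 3 was lowest. The difference was -0.26 ± 0.12, a ratio of 1.19 (limma unadjusted p = 0.0692, adjusted p = 0.679). It was -0.14 both without isoflurane rat 3 and with the block for slide row.

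Khk, the ketohexokinase of fructose entry, and Mlxipl, which encodes the glucose-sensing transcription factor ChREBP, hardly varied. Their differences were 0.01 ± 0.093 and -0.02 ± 0.087, with ranges of 1.15-fold and 1.16-fold over all rats.

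**Figure D4:**
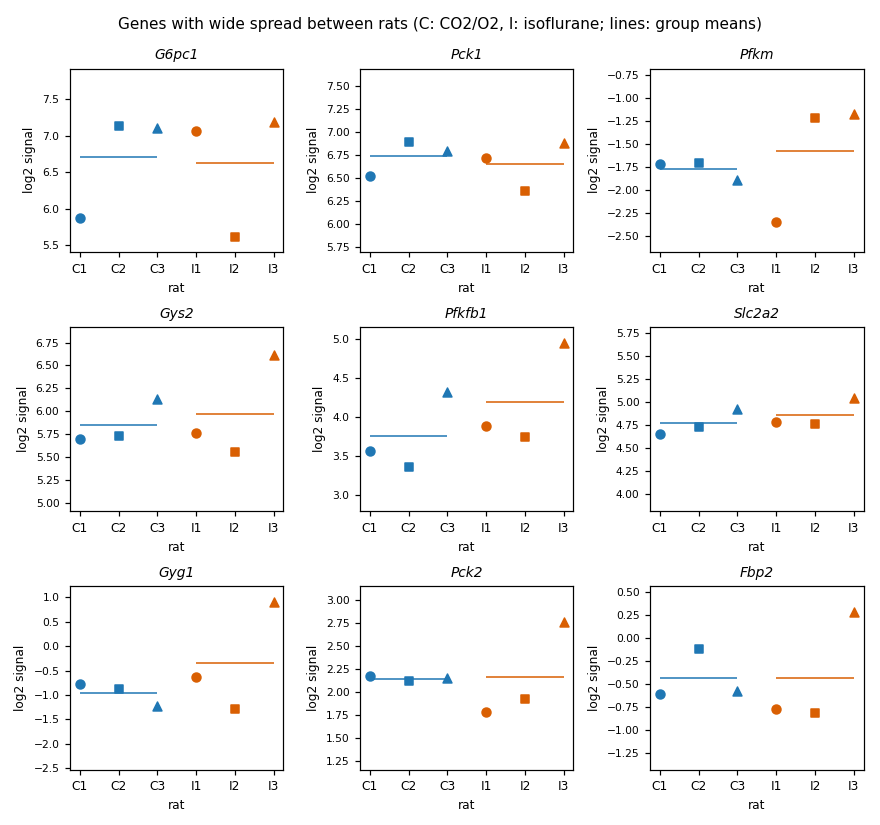
Log2 signal of 9 genes in each rat (C1 to C3, CO2/O2; I1 to I3, isoflurane), with group means as lines; each panel has its own scale. G6pc1 and Pck1 are lowest in C1 and I2, Pfkm is lowest in I1, Gys2, Pfkfb1 and Slc2a2 are highest in C3 and I3, and Gyg1, Pck2 and Fbp2 are highest in I3.

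Isoflurane rat 3 had the highest value of the 6 rats for 13 of 32 members, against 21.0% of all genes. It had the lowest for 5, against 22.8% of all genes. Isoflurane rat 2 had the lowest value for 7 members, against 23.3% of all genes.

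A list of 34 further genes of these routes was examined in the same way. Of these 29 were tested, 15 with positive and 14 with negative differences and a median of 0.01. In limma 0 of 29 passed the adjusted threshold and 4 lay below an unadjusted p of 0.05, against 7.58% of all genes. Eno2, the neuronal enolase, had 0.27 ± 0.096 (limma adjusted p = 0.619), and its groups did not overlap. Slc2a5, a fructose transporter, had 0.40 ± 0.15 (limma adjusted p = 0.644) and Tkfc, which phosphorylates glyceraldehyde from fructose, 0.44 ± 0.18 (limma adjusted p = 0.655). Tkfc was highest on the arrays of slide row 2, at 2.11 and 2.16 against 1.34 to 1.64 elsewhere, and its difference was 0.071 with the block for slide row, where that of Slc2a5 was 0.27. Galm, which interconverts glucose anomers, had -0.25 ± 0.099 (limma adjusted p = 0.652), without overlap of the groups.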

How the data were processed

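Liver RNA of 6 rats was hybridised to 1-colour arrays, 1 rat per array. Per the submitters' processing notes, the scanner images went through Agilent Feature Extraction 10.7. The deposited spot values are intensity values on a linear scale, corrected for background by that software, per the file headers, and not scaled between arrays. The authors' deposited value table holds a ratio per probe, found by comparison to be the processed intensity divided by 1 number per array, near its 75th percentile; its origin is not stated in the labels or headers.

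Log2 intensity was reduced by the 75th percentile of the 61657 non-control probes of each array. The 177 outlier spots were left out, none of them on a member probe. Testing was limited to the 34637 probes well above background throughout 1 group or both (3 of 3 arrays). limma 3.58.1 in R 4.3.3 gave differences, SEs, 95% intervals and p-values, adjusted over all tested probes (Benjamini-Hochberg, threshold 0.05). Reading, motif counts and plots used Python 3.11.15, pandas 2.3.3, numpy 2.4.6 and matplotlib 3.10.9. The fit was tested on simulated data.

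Probes were named by accession through RefSeq genes of GRCr8 (27460 matched 1 gene, 34197 none, giving 15284 genes). Array positions are not given because the headers name build rn4.

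The members and lists were chosen with earlier results of these data known. In full were given the 2 members of each list with the smallest p, the 2 with the largest pooled SD, the 6 smallest p of all, those not above background, and the 4 smallest p among the further genes; Pck2 and the other members with values were named after their values were seen, and the TATAAA motif was added then. Samples with the same replicate number correlated in their deviations from group means at 0.11, 0.02 and 0.06, so the numbers were not taken as pairs. The values of 1 further gene, which the counts of its list include, are not reported here. Alternative settings were normexp background correction (offset 50), quantile normalization, median centring, the authors' table, other filters, a block for replicate number or slide row, averaging the probes of a gene, eBayes with trend and robust, and each array left out.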

Additional observations from a re-analysis of the deposited data

How the results depend on the processing

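With 3 rats per group, intervals bound most members within 2-fold but not Hk3, G6pc1, Gyg1 and Pfkfb1. In limma, 0 members passed the adjusted threshold in every alternative run, including each array left out. At an unadjusted limma p of 0.05 the count was 0 in the setting reported and 0 to 3 in the others. It was 3 (Hk3, Pfkp and Slc2a1) without CO2/O2 replicate 3. Gckr lay below 0.05 with normexp, with median centring, and with eBayes with trend and robust. Pfkfb3 did with normexp and without CO2/O2 replicate 2, Hk2 with no filter, Pfkfb1 with the replicate block, and Pck2 without isoflurane replicate 3. Pfkm did without isoflurane replicate 1, at a difference of 0.58. That run also gave the smallest adjusted limma p, 0.305, for Pfkm. The differences that changed sign were small or rested on single rats; beyond what leaving out an array shows, the cause was not tested. Fbp2 was -0.017 with normexp, -0.0046 with quantile normalization, -0.058 with median centring and -0.013 with the mean of its probes, and Pck2 -0.047 with median centring. The slide row as a block rests on isoflurane replicate 1 for that arm. It gave -0.58 for Pfkm, 0.36 for G6pc1, -0.34 for Fbp2, -0.094 for Gys2 and -0.36 for Pck2, and medians of -0.038 for glycolysis and -0.015 for glycogen genes. The glycogen median was also -0.024 with median centring and 0.10 with probes averaged. The median of the further genes was -0.026 with quantile normalization, -0.052 with median centring and 0.031 with no filter. Over all tested probes, median centring put the median difference at -0.06 and no filter at 0.08.

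With 1 array left out, differences ran from -0.011 to 0.58 for Pfkm, -0.20 to 0.066 for Pck1, -0.50 to 0.42 for G6pc1, -0.36 to 0.19 for Fbp2, -0.20 to 0.33 for Gys2, -0.29 to 0.20 for Pck2, -0.33 to -0.15 for Pfkp, -0.14 to -0.030 for Fbp1, 0.15 to 0.34 for Pfkfb3 and 0.062 to 0.73 for Pfkfb1. The median within-group SD of gluconeogenesis ran from 0.17 without isoflurane replicate 3 to 0.35 without CO2/O2 replicate 3, and that of glycogen genes from 0.16 to 0.26. The glycolysis median ran from -0.01 to 0.09, the gluconeogenesis median from -0.25 to 0.10 and that of the further genes from -0.032 to 0.032. With the replicate number as a block, 0 members passed the adjusted threshold, so no call changed there. The differences were the same, such as -0.26 for Gckr and 0.027 for the glycolysis median, since every rat number occurs once in each group. The unadjusted limma p of Pfkfb1 was 0.0126 with that block, against 0.30 in the setting reported.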
